A study of Mus musculus with 10 samples.

Results

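Cadherins and nonclustered protocadherins were examined as a gene family in mouse MYC/SMARCA4 tumors, P7 cerebella and SHH medulloblastomas (SHH MB). Members were all genes in the count files whose symbol is Cdh or Pcdh followed by a number, with Pcdh11x included and the endothelial cadherin Cdh5 left out. This gave 34 genes of 50559 in the files, and all 34 passed the filter on low counts, together with 29952 genes in all. They were 5 type I classical cadherins, 12 type II classical cadherins, 5 other cadherins, 4 δ1-protocadherins, 5 δ2-protocadherins and 3 other protocadherins. The 4 MYC/SMARCA4 tumors had grown in the cerebellum of CD1nu/nu hosts, which are immunodeficient, from granule cell precursors (GCPs) of Math1-creERT2::Smarca4fl/fl pups. The pups had received 0.4 mg tamoxifen at P3, and their GCPs carried a lentiviral construct with murine Myc and GFP. The GCPs were not sorted for recombined or transduced cells before transplantation. By the labels, tumors 1 to 4 were taken at 112, 96, 89 and 79 days of age. The 3 P7 cerebella came from 7-day-old Math1-creERT2::Smarca4fl/fl mice that had received the same dose of tamoxifen at P3. These controls therefore carried the same alleles and treatment as the donors of the tumor cells. Since the Math1 promoter drives the Cre in the granule lineage, the other cells of these whole cerebella were not targeted. The 3 SHH MB came from Math1-cre::Smofl/wt mice, in which Cre in the same lineage acts on a floxed Smo allele, and are labelled with an age of 7 days.

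Cadherins are calcium-dependent adhesion proteins of the cell surface. Classical cadherins bind like molecules on a neighboring cell and connect through catenins to actin. Type I members are typical of strong adhesion, as Cdh1 (E-cadherin) in epithelia and Cdh2 (N-cadherin) in neural tissue, whereas type II members are expressed in patterns that mark groups of neurons. Nonclustered protocadherins adhere more weakly and signal through their cytoplasmic parts, and some δ2-protocadherins recruit the actin-regulating WAVE complex. During cerebellar development, members of both families take part in the sorting, migration and wiring of granule and Purkinje cells.

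Between 5663491 and 9352109 reads were counted on genes per library, and a level of 3 counts corresponded to 0.303 to 0.741 CPM, which are counts scaled to the normalized library size. The tumors differed among themselves far more than the controls did. Summed markers of mature granule neurons (7 of 7 in the files) ranged from 205 to 4396 CPM in the tumors, 359 to 426 in P7 cerebella and 148 to 197 in SHH MB. Tumor 1 had the highest sum of these, of Purkinje (8 of 8 in the files, 13687 CPM) and of oligodendrocyte markers (8 of 8, 4158 CPM), and its proliferation markers (8 of 8) summed to 118 CPM against 1658 to 1857 in the other tumors. Tumor 3 had the lowest sums of all 3 lists of neurons. Choroid plexus markers (7 of 7) summed to 25.5 to 126 CPM in the tumors, 586 to 1178 in P7 cerebella and 321 to 1314 in SHH MB. Single genes carried these sums. Ttr had 1 to 22 counts per tumor, 4227 to 10051 per P7 cerebellum and 1616 to 10118 per SHH MB. Otx2 was the largest of the list in every tumor, with 50, 641, 705 and 107 counts in tumors 1 to 4. Myc reached 152, 367, 1565 and 1011 CPM in tumors 1 to 4 and 12.8 to 45.4 CPM in the controls, whereas Smarca4 did not pass the test between tumors and P7 cerebella (log2 fold change -0.30 ± 0.28 SE, adjusted p = 0.495) and was lower in tumors than in SHH MB (-1.39 ± 0.28, adjusted p = 0.0157). The paper reports that staining showed no SMARCA4 protein in any tumor cell and that PCR found recombined Smarca4 in the tumors. RNA counted over the whole gene is a different measure. In bulk samples, fewer cells of a type and less RNA per cell cannot be told apart, and the part of cell composition in the results was not tested.

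The family was dominated by Pcdh9, a δ1-protocadherin of neurons, which held 37.8% to 72.8% of all member reads in every library. Pcdh9 reached 2746, 1737, 751 and 1018 CPM in tumors 1 to 4, 1598, 1548 and 1242 CPM in P7 cerebella and 788, 911 and 1062 CPM in SHH MB. The tumors spanned the levels of both control groups, and in the fit of all 10 libraries no comparison passed the test. Per length, as CPM per kb of exon, Pcdh9 had mean levels of 169 ± 96.4 in tumors (SD, n = 4), 158 ± 20.9 in P7 cerebella (n = 3) and 99.6 ± 14.8 in SHH MB (n = 3). On this scale the next member was Cdh20 in SHH MB with 52.7 ± 1.62, followed there by Cdh2 with 16.0 ± 0.88. In tumors and P7 cerebella, the group means of the members below Pcdh9 were at most 12.3 CPM per kb, that of Cdh2 in P7 cerebella. Single libraries there reached up to 14.5 CPM per kb, for Cdh18 and Cdh7 in tumor 1. At the other end, Cdh17, a cadherin of the gut, had no group mean above 0.78 CPM per kb. For Cdh26, a cadherin of epithelia, tumor 2 had 0 counts, where 3 counts would be 0.538 CPM.

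**Figure D1:**
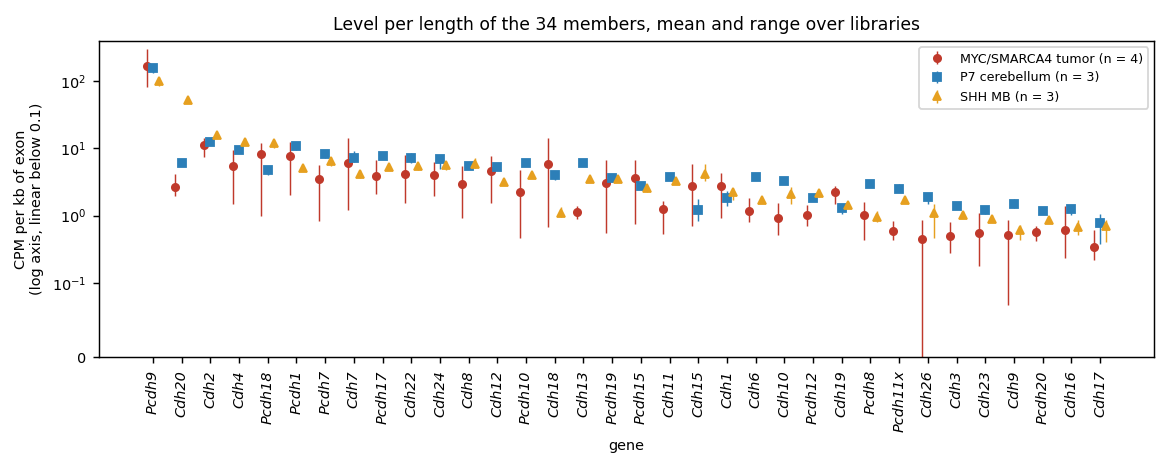
Levels of the 34 members as CPM per kb of exon on an axis that is logarithmic above 0.1 and linear below. Symbols are group means and bars run from the lowest to the highest library. Pcdh9 lies far above all others, and Cdh20 is the member whose SHH MB libraries are most clearly separated from the other groups.

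No upstream window was available for Cdh13 and Pcdh11x. As examples, the 250 bases before the annotated start are given for Cdh20, for Cdh7, also on chromosome 1, and for Cdh15. Cdh7 and Cdh15 were not called in the fit of all 10 libraries, and their windows hold a match to a motif searched. The printed sequences are all from the plus strand of RefSeq on GRCm38.p6 and read 5′ to 3′. The windows lie at chr1:104768270-104768519 for Cdh20, chr1:109982650-109982899 for the first of 3 starts of Cdh7 and chr8:122848124-122848373 for Cdh15. Capitals mark a match to one of the 3 motifs searched.
Cdh20: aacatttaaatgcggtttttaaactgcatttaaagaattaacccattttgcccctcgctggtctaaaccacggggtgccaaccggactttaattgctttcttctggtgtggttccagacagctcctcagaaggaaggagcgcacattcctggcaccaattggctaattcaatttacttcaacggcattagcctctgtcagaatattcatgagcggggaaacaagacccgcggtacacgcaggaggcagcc
Cdh7: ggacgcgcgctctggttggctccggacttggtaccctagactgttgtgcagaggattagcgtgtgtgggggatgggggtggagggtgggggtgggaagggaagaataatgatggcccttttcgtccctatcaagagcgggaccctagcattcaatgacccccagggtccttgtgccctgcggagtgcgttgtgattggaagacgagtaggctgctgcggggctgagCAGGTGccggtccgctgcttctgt
Cdh15: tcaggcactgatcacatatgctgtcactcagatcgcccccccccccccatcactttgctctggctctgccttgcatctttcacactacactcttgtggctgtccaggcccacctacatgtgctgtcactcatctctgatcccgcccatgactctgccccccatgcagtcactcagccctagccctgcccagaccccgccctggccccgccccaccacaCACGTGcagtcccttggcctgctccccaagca

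The table of promoters held 25 windows for 22 of the 34 members. Searched on both strands were TGGGTGGTC, a motif of the GLI factors of the SHH pathway, CACGTG, the E-box that MYC can bind, and CAGGTG, an E-box of Zeb and Snail factors. Of all 32851 windows of this length, 0.225% held the GLI letters, and none of the 25 member windows did, that of Cdh20 included. CACGTG was present in 6.02% of all windows and among the members in that of Cdh15. CAGGTG was present in 17.2% of all windows and in 3 windows of members, which belonged to Cdh7 and Pcdh15. A match is a description of these letters, and a missing match says nothing about the factor.

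The first comparison asked how the MYC/SMARCA4 tumors differ from developing cerebellum of mice with the same floxed Smarca4 alleles and tamoxifen dose. At an adjusted p of at most 0.05, 9 of the 34 members were lower in tumors than in P7 cerebella and 0 were higher. Over all genes, 2.27% were called lower and 3.99% higher in this comparison. The median log2 fold change was -0.97 over the 34 members and -0.05 over all genes, and 27 members had a negative value. The called members came from every class, with 1 type I cadherin (Cdh3), 4 type II cadherins (Cdh6, Cdh10, Cdh11 and Cdh20), Cdh13, 1 δ1-protocadherin (Pcdh11x), 1 δ2-protocadherin (Pcdh8) and Pcdh20. As to the members called higher, DESeq2 and limma also gave 0, and at an unadjusted p under 0.05 edgeR gave 1, which was Cdh19, against 18 that were lower. Many other genes passed this cut, since Cdh8, with the largest p of these members (0.0477), ranked 7394 of 29952 genes. A stricter rule of a log2 fold change of at least 2.5 with an adjusted p of at most 0.01 was met by 0 members and by 0.29% of all genes.

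**Figure D2:**
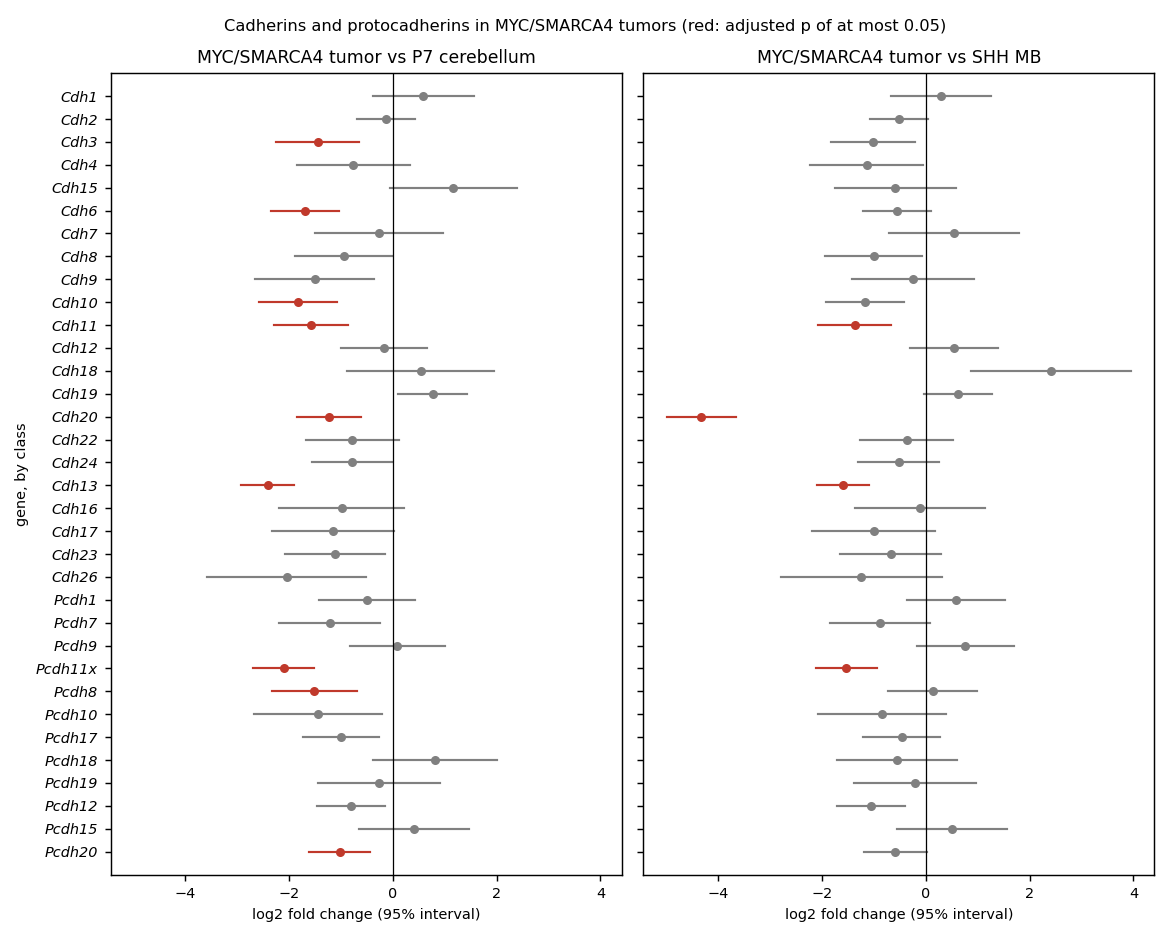
Log2 fold changes of the 34 members in MYC/SMARCA4 tumors against P7 cerebella (left) and against SHH MB (right), with 95% intervals from edgeR. Red marks an adjusted p of at most 0.05. All red points lie left of 0, and Cdh20 against SHH MB is the most distant.

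Among type I cadherins, Cdh3 (P-cadherin, an epithelial cadherin) reached 3.21, 1.79, 5.24 and 3.04 CPM in tumors 1 to 4, 8.70, 8.75 and 9.86 CPM in P7 cerebella and 7.70, 6.42 and 6.21 CPM in SHH MB. Each tumor lay below each control library, and the decrease against P7 cerebella was -1.44 ± 0.37 (log2 fold change ± SE, adjusted p = 0.0391). The call was kept in 7 of 19 alternative analyses, with adjusted p-values up to 0.178. Cdh3 was among the lowest members in every group, with 10 to 38 counts per tumor. The other 4 type I cadherins did not pass the test. Cdh2, the main cadherin of neural progenitors, reached 107, 123, 96.3 and 64.8 CPM in tumors, 116, 108 and 96.6 CPM in P7 cerebella and 136, 133 and 148 CPM in SHH MB. The tumors overlapped with the P7 cerebella, and the 95% interval of the log2 fold change ran from -0.70 to 0.42. Cdh1 reached 17.8, 19.7, 4.28 and 9.83 CPM in tumors, 8.09, 10.8 and 6.48 CPM in P7 cerebella and 12.02, 7.83 and 11.4 CPM in SHH MB, so that tumors lay both above and below the controls. For Cdh4 (R-cadherin, an adhesion protein of developing neurons), levels were 18.5, 62.8, 70.0 and 10.7 CPM in tumors, 68.6, 75.0 and 61.7 CPM in P7 cerebella and 81.2, 104 and 82.4 CPM in SHH MB. Tumors 1 and 4 were far below all controls, whereas tumors 2 and 3 were within the range of the P7 cerebella. Cdh15 (M-cadherin, known from muscle and granule cells) reached 30.6, 10.4, 3.59 and 13.4 CPM in tumors, 5.56, 9.07 and 4.37 CPM in P7 cerebella and 30.5, 16.8 and 17.1 CPM in SHH MB. Tumor 3 was below and the other tumors were above all P7 cerebella.

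The type II cadherins accounted for 4 of the 9 decreases. Cdh6 (K-cadherin, which marks compartments of the developing brain) reached 18.5, 12.02, 8.42 and 8.13 CPM in tumors 1 to 4, 34.3, 38.0 and 40.71 CPM in P7 cerebella and 16.5, 18.5 and 16.5 CPM in SHH MB. All tumors were below all P7 cerebella but overlapped with SHH MB, and the log2 fold change against P7 cerebella was -1.70 ± 0.30 (adjusted p = 0.0105, called in 17 of 19 alternatives). Cdh10, a synaptic type II cadherin, had levels of 9.38, 11.1, 6.62 and 19.7 CPM in tumors, 42.6, 38.8 and 42.8 CPM in P7 cerebella and 18.6, 26.6 and 33.7 CPM in SHH MB. Here, tumor 4 reached the lowest SHH MB, and the log2 fold change against P7 cerebella was -1.82 ± 0.35 (adjusted p = 0.0135, called in 16 of 19 alternatives). Cdh11, a cadherin of mesenchyme and brain, reached 14.6, 19.0, 6.21 and 18.6 CPM in tumors, 45.0, 40.5 and 44.5 CPM in P7 cerebella and 34.2, 38.3 and 40.5 CPM in SHH MB. All tumors lay below both control groups, with a log2 fold change of -1.58 ± 0.33 against P7 cerebella (adjusted p = 0.0186, called in 14 of 19 alternatives). Meninges and fibroblast markers, of which Cdh11 is not one here, summed to 81.7 to 361 CPM in tumors and 311 to 346 CPM in P7 cerebella. Cdh20 was lower by -1.23 ± 0.29 (adjusted p = 0.0272) and is described with SHH MB. The other 8 type II cadherins did not pass the test, with log2 fold changes between -1.51 (Cdh9) and 0.76 (Cdh19).

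Against P7 cerebella, the largest decrease concerned Cdh13 (T-cadherin, which is anchored in the membrane by a lipid and lacks a cytoplasmic part). Cdh13 lies at chr8:119010328-120051660 (GRCm39, plus strand) and reached 13.1, 16.2, 13.5 and 10.2 CPM in tumors 1 to 4, 69.8, 72.6 and 67.9 CPM in P7 cerebella and 42.7, 37.0 and 39.6 CPM in SHH MB. All tumors were close to each other and far below both control groups, and the log2 fold change was -2.41 ± 0.23 (5.32-fold lower, adjusted p = 0.000312). The call held in 19 of 19 alternative analyses, with log2 fold changes from -2.66 to -2.24. A two-sided exact permutation test of log2 CPM gave p = 0.0286, the smallest that 4 against 3 libraries allow. Of the other atypical members, Cdh16, Cdh17, Cdh23 and Cdh26 had log2 fold changes between -2.05 and -0.99 without passing the test. Cdh23 and Pcdh15 form the tip links of sensory hair cells, and Cdh16 and Cdh17 are cadherins of kidney and gut.

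Pcdh11x, an X-linked δ1-protocadherin of the brain at chrX:119199956-119820316 (GRCm39, plus strand), showed the same separation. It reached 8.39, 11.3, 5.93 and 6.80 CPM in tumors, 32.6, 40.2 and 30.9 CPM in P7 cerebella and 22.03, 23.0 and 24.8 CPM in SHH MB. The 3 groups did not overlap, and the log2 fold change of tumors against P7 cerebella was -2.10 ± 0.27 (4.30-fold lower, adjusted p = 0.00202), which held in 19 of 19 alternatives. Among the δ2-protocadherins, Pcdh8 (arcadlin, an activity-regulated protein of synapses) was called. Its levels were 1.97, 7.18, 5.38 and 4.13 CPM in tumors, 14.3, 13.8 and 12.1 CPM in P7 cerebella and 3.85, 5.26 and 3.67 CPM in SHH MB. Tumors and SHH MB overlapped with each other and were both below the P7 cerebella, with a log2 fold change of -1.51 ± 0.38 for the tumors (adjusted p = 0.0374). This call was lost in 10 of 18 alternatives, with adjusted p-values up to 0.168. Pcdh20, a protocadherin outside the δ classes in the grouping used here, reached 9.13, 8.43, 5.38 and 6.43 CPM in tumors, 15.5, 14.5 and 14.5 CPM in P7 cerebella and 10.9, 10.98 and 10.9 CPM in SHH MB. All tumors lay below all controls, and the log2 fold change against P7 cerebella of -1.03 ± 0.27 was the smallest among the 9 calls (adjusted p = 0.0454). It was lost in 13 of 19 alternatives, with adjusted p-values up to 0.195.

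**Figure D3:**
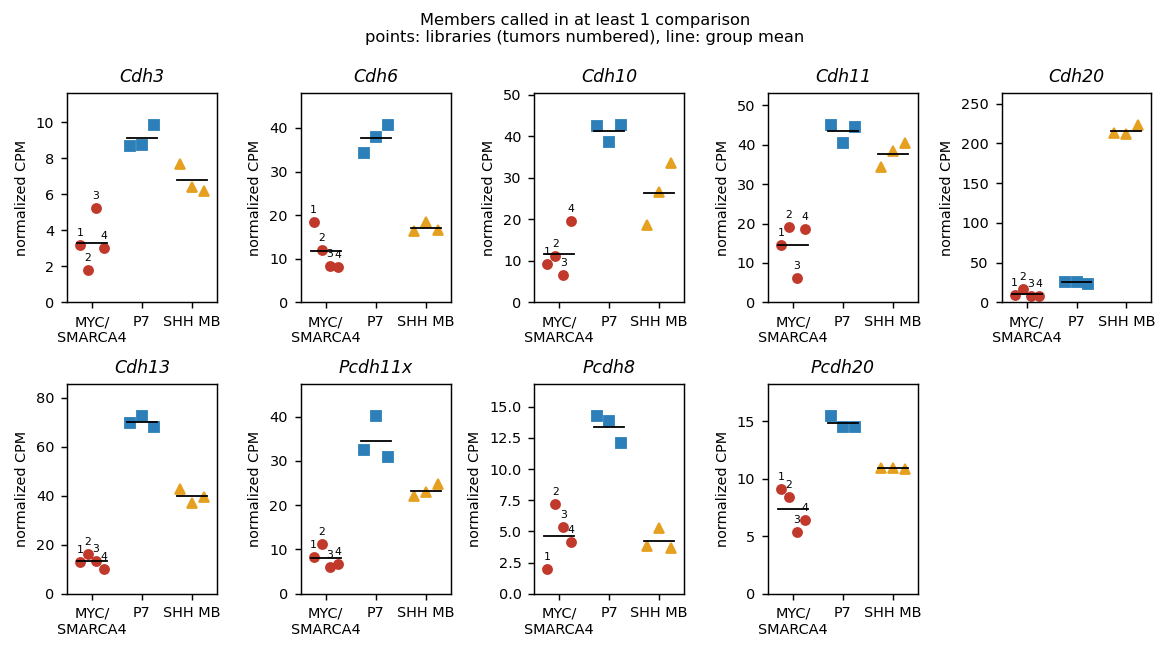
Normalized CPM in each of the 10 libraries for the 9 members called in at least 1 comparison, on linear axes from 0. Tumors are numbered and lines are group means. In all 9 panels the 4 tumors lie below the 3 P7 cerebella, and in the panel of Cdh20 the SHH MB libraries reach 211 to 224 CPM.

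The number of calls against P7 cerebella depended on single libraries. It was 19 without tumor 3, of which 17 were lower and 2, Cdh15 and Cdh19, were higher. That fit called 9932 genes in all, against 1194 higher and 679 lower with all libraries. The count of members was 5 without tumor 4 (997 genes in all). It was 3 without P7 cerebellum 1 (224 genes) or 3 (198 genes) and 2 without P7 cerebellum 2 (150 genes). It was 5 when a single SHH MB was left out, whichever of the 3 it was, in fits that called 760, 777 and 832 genes in all. The cause of this change was not tested. The paper names tumor 3 as an exception that clustered with human SHH MB. Over all genes tested, the median correlation with the other tumors was lowest for tumor 3 (0.879), followed by tumor 1 (0.891). Without tumor 1, 13 members and 4816 genes in all were called against P7 cerebella. Pcdh18 was then higher (log2 fold change 1.19 ± 0.22, adjusted p = 0.00291). In the same comparison, 3 of 7 choroid plexus markers (Ttr, Kcne2 and Aqp1) and 3 of 7 astrocyte and Bergmann glia markers (Aqp4, Gdf10 and Aldh1l1) were called lower. The other 4 of each list did not pass the test, and 1 choroid plexus marker and 2 astrocyte markers had positive values. The astrocyte list summed to 133 to 1231 CPM in tumors and 1653 to 1686 CPM in P7 cerebella. Of 7 markers of mature granule neurons, 4 were called higher, and the part of these cells in the decreases was not tested.

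The comparison with SHH MB asked how the tumors differ from a medulloblastoma of the same lineage with another driver. It shares the 4 tumors with the first comparison and is not independent of it. Here, 4 members were lower and 0 were higher in MYC/SMARCA4 tumors, against 2.26% of all genes that were lower and 2.43% that were higher. The median log2 fold change was -0.56 over the members and 0.01 over all genes. Limma also called 0 members higher, DESeq2 called 1, and at an unadjusted p under 0.05 edgeR gave 1 (Cdh18) that was higher and 9 that were lower. Cdh4, with the largest unadjusted p of these members (0.0423), ranked 5446 of 29952 genes. The calls were Cdh20, Cdh13 (log2 fold change -1.59 ± 0.23, adjusted p = 0.00244), Pcdh11x (-1.53 ± 0.27, adjusted p = 0.00788) and Cdh11 (-1.37 ± 0.33, adjusted p = 0.0330). For Cdh13 the call held in 19 of 19 alternatives, for Pcdh11x in 17 and for Cdh11 in 11. The stricter rule was met by 1 member, Cdh20, and by 0.601% of all genes. The count of 4 became 7 without tumor 1, 13 without tumor 3 and 2 without SHH MB 2 or SHH MB 3. Of the 13, 10 were lower and 3, Cdh12, Cdh18 and Pcdh1, were higher. Over all genes, 6729 were called without tumor 3 and 2920 without tumor 1, against 727 higher and 676 lower with all libraries. The fits without SHH MB 2 and SHH MB 3 called 353 and 311 genes. Choroid plexus markers were again lower in the tumors (3 of 7 called), and 5 of 7 markers of mature granule neurons were higher.

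Cdh20, a type II cadherin at chr1:104696236-104923207 (GRCm39, plus strand), set the 3 groups apart. It reached 9.38, 17.2, 8.42 and 8.13 CPM in tumors 1 to 4, 26.3, 26.4 and 23.0 CPM in P7 cerebella and 213, 211 and 224 CPM in SHH MB. Behind these levels stand 38 to 96 counts per tumor, 163 to 260 per P7 cerebellum and 1382 to 1810 per SHH MB. The groups did not overlap, with SHH MB far above P7 cerebella and the tumors lowest. Against SHH MB, the tumors were lower by a log2 fold change of -4.33 ± 0.31 (20.1-fold, adjusted p = 1.72e-05), and this call held in 19 of 19 alternatives with log2 fold changes from -4.64 to -4.16. The exact permutation test of the log2 CPM gave p = 0.0286 against SHH MB and p = 0.0571 against P7 cerebella, and edgeR's call against P7 cerebella held in 8 of 19 alternatives. Per length, the mean levels were 2.63 ± 1.06 CPM per kb in tumors, 6.15 ± 0.47 in P7 cerebella and 52.7 ± 1.62 in SHH MB. Of 8 markers of GCPs, 2 were called lower in the tumors than in P7 cerebella (Barhl1 and Mycn), 3 were lower than in SHH MB (the same and Ccnd1), 2 were higher in SHH MB than in P7 cerebella (Barhl1 and Ccnd1), and the others, such as Gli1, Zic1 and Zic2, did not pass the test. Their summed level was 625 to 1579 CPM in tumors, 1524 to 1654 CPM in P7 cerebella and 2303 to 2852 CPM in SHH MB, and their part in the pattern of Cdh20 was not tested.

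The third comparison set SHH MB against P7 cerebella. In the fit of all 10 libraries, Cdh20 was the single member called, with a log2 fold change of 3.09 ± 0.32 (8.54-fold higher, adjusted p = 0.00629), and it also met the stricter rule. In all, 0.177% of genes were called higher, 0.0467% lower and 0.01% by the stricter rule in this comparison, and among all genes Cdh20 had the lowest p-value. The count of members called lower was 0 by edgeR and by limma and 3 by DESeq2. At an unadjusted p under 0.05, edgeR gave 6 members that were lower and 3 that were higher. Cdh9, with the largest unadjusted p of these members (0.0447), ranked 2419 of 29952 genes. The call of Cdh20 was lost when any P7 cerebellum, SHH MB 2 or SHH MB 3 was left out (adjusted p of Cdh20 at most 0.109). Each of these fits called 0 members and 0 genes in all. The log2 fold change of Cdh20 stayed between 3.02 and 3.16 in all 19 alternatives. Without tumor 1, 5 members were called, and without tumor 3, 2 were. Over all genes, these fits called 946 and 442, against 53 higher and 14 lower with all libraries.

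The wide spread among the tumors enters this fit. When SHH MB and P7 cerebella were fitted without the tumors, 18 of the 34 members were called, 5 higher and 13 lower, where 13.4% of all 29018 genes tested were called higher and 10.3% lower. Higher in SHH MB were Cdh20 (log2 fold change 3.11 ± 0.13), Cdh15 (1.75 ± 0.26), Pcdh18 (1.39 ± 0.15), Cdh2 (0.40 ± 0.12) and Cdh4 (0.40 ± 0.13). The lower members were the type II cadherins Cdh6, Cdh7, Cdh9, Cdh10, Cdh12 and Cdh18, the atypical Cdh13, the δ1-protocadherins Pcdh1, Pcdh9 and Pcdh11x, and the δ2-protocadherins Pcdh8, Pcdh10 and Pcdh17. The largest decreases were those of Cdh18 (-1.84 ± 0.18, adjusted p = 9.93e-09) and Pcdh8 (-1.62 ± 0.24, adjusted p = 7.80e-06). Summed Purkinje markers were lower in SHH MB (1059.6 to 1429 CPM) than in P7 cerebella (2253 to 2595 CPM), as were those of oligodendrocytes (128 to 394 against 955 to 1131 CPM), while proliferation markers were higher (1979.7 to 2449 against 735 to 987 CPM). Their part in these differences was not tested.

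**Figure D4:**
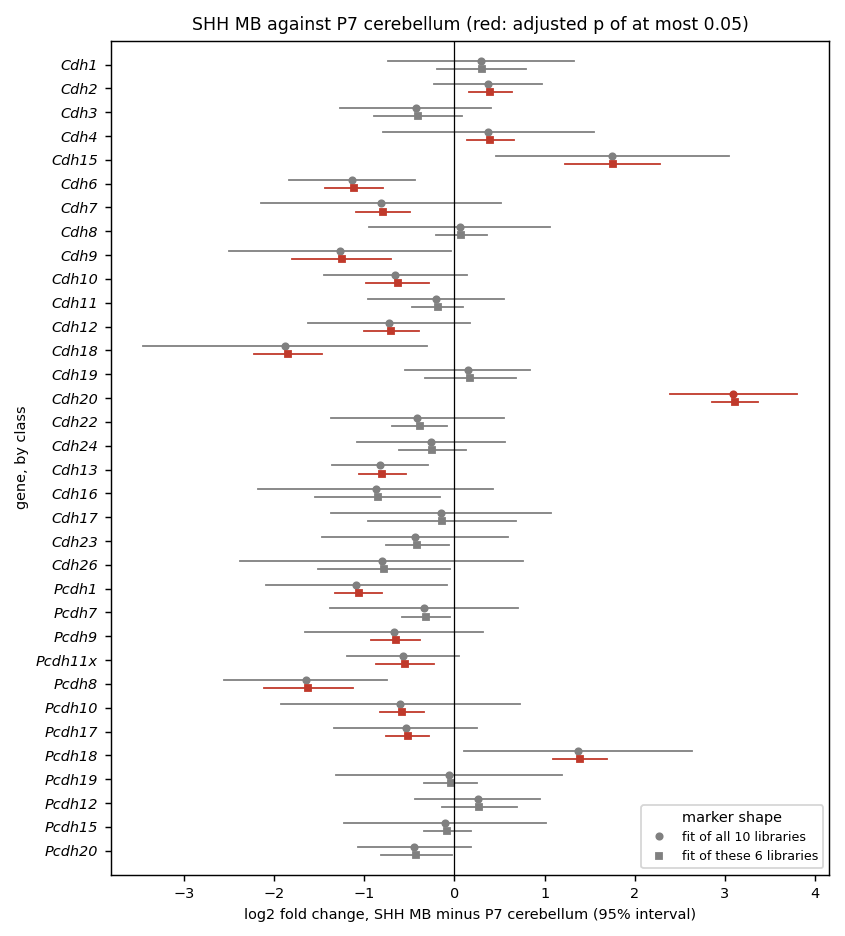
Log2 fold changes of the 34 members in SHH MB against P7 cerebella with 95% intervals. Circles are from the fit of all 10 libraries and squares from a fit of these 6 libraries alone, and red marks an adjusted p of at most 0.05. The fold changes are nearly the same in both fits, the intervals are narrower without the tumors, and the red points number 1 and 18.

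By their position, several members are neighbors. Cdh7 and Cdh19 lie 747 kb apart on chromosome 1 with no protein-coding gene between them, and Cdh20 lies 4987 kb from Cdh7 with 21 protein-coding genes between. Unlike Cdh20, Cdh7 was lower in SHH MB in the fit of the 6 libraries (-0.79 ± 0.15, adjusted p = 0.000155) and Cdh19 did not pass the test (0.18 ± 0.24, adjusted p = 0.672). On chromosome 15, Cdh6, Cdh9, Cdh10, Cdh12 and Cdh18 follow each other with no protein-coding gene between any neighboring pair. All 5 genes of this run were lower in SHH MB in the fit of the 6 libraries, with log2 fold changes from -1.84 for Cdh18 to -0.63 for Cdh10. In the tumors, Cdh6 and Cdh10 were called lower than in P7 cerebella, and Cdh9, Cdh12 and Cdh18 had log2 fold changes of -1.51, -0.17 and 0.53 that did not pass the test. All tumors lay below all P7 cerebella for Cdh9, which was called lower without tumor 1 (adjusted p = 0.0421).

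Cdh18, a type II cadherin of the nervous system that is described here because of its spread, varied most between tumors. It reached 138, 44.5, 6.35 and 32.3 CPM in tumors 1 to 4, 37.4, 32.8 and 43.1 CPM in P7 cerebella and 9.09, 12.7 and 9.03 CPM in SHH MB. Tumor 1 lay far above and tumor 3 below all other libraries, a 21.8-fold range. The TMM factors that scale the library sizes, 0.62 in tumor 1 and 1.28 in tumor 3, widened this range. The raw counts of Cdh18 were 560 in tumor 1 and 46 in tumor 3. Against SHH MB, the log2 fold change was 2.41 ± 0.72 (adjusted p = 0.0772), and without tumor 3 it was 2.56 ± 0.43 (adjusted p = 0.00309). Over the family, the highest tumor exceeded the lowest by more than 2-fold for 29 of 34 members and by more than 4-fold for 18, whereas 2 members in P7 cerebella and 2 in SHH MB exceeded 2-fold. The median coefficient of variation was 56.2% among tumors, 11.1% among P7 cerebella and 12.6% among SHH MB. Tumor 3 was the lowest tumor for 18 members and tumor 1 the highest for 11, after scaling with these TMM factors.

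Tumor 1 and the other tumors were ordered differently by different members. Tumor 1 was the highest for Cdh7 (149, 56.0, 12.6 and 34.8 CPM in tumors 1 to 4), a cadherin of granule neurons, and the lowest for Pcdh18 and Pcdh15. Pcdh18, a δ2-protocadherin, reached 5.43, 64.4, 47.6 and 62.0 CPM in tumors, 27.3, 22.03 and 27.2 CPM in P7 cerebella and 54.9, 70.9 and 72.4 CPM in SHH MB. Without tumor 1, all tumors lay above the P7 cerebella. Pcdh15 reached 18.0, 159, 95.1 and 74.8 CPM in tumors, 60.9, 69.6 and 64.8 CPM in P7 cerebella and 53.6, 62.1 and 66.3 CPM in SHH MB. Tumors 2 to 4 lay above all controls and tumor 1 below, and without tumor 1 the adjusted p was 0.0732 against P7 cerebella. Pcdh10 and Pcdh19, which are both δ2-protocadherins, were highest in tumor 4 (82.6 and 71.3 CPM) and lowest in tumor 3 (8.004 and 5.80 CPM). Tumor 1 also had the highest and tumor 3 the lowest sum of the neuron markers given above. The order of the tumors by these sums was that of Cdh18 and Cdh7, and also of Pcdh9, Pcdh1, Pcdh20, Cdh12, Cdh19 and Cdh22. It was not that of any other member, Pcdh18, Pcdh15, Pcdh10 and Pcdh19 included. The part of the marked cells was not tested.

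**Figure D5:**
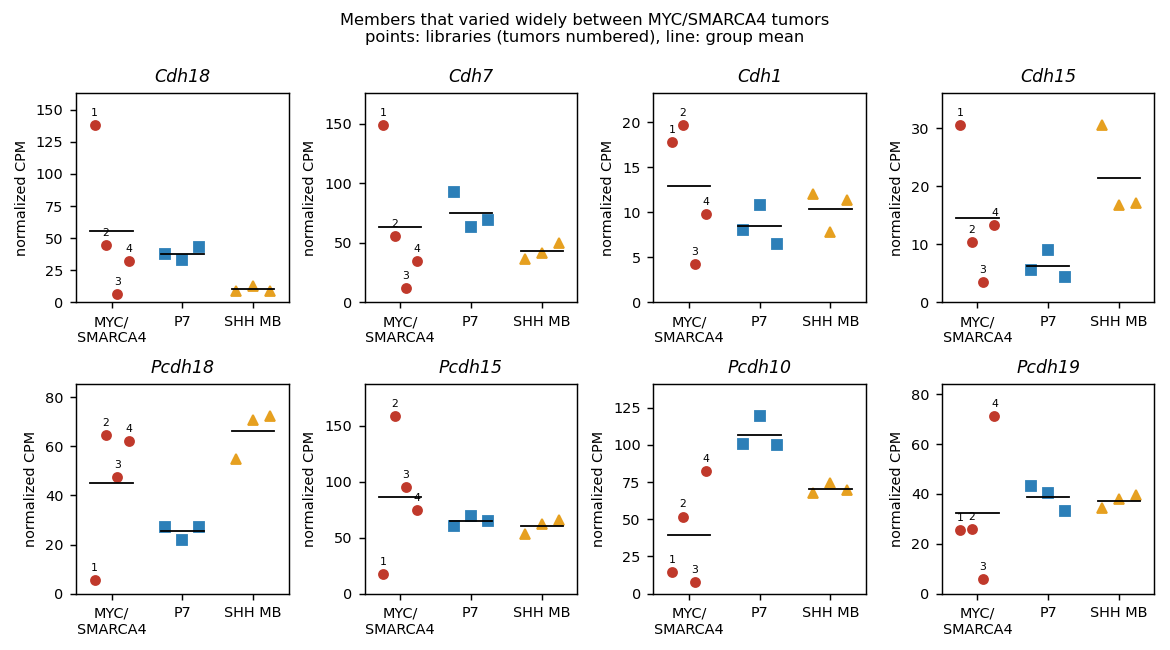
Normalized CPM in each of the 10 libraries for 8 members that varied widely between tumors and were chosen for that spread, on linear axes from 0. Tumors are numbered and lines are group means. Tumor 1 is the highest tumor for Cdh18, Cdh7 and Cdh15 and the lowest for Pcdh18 and Pcdh15, and tumor 3 is the lowest for Cdh18, Cdh7, Cdh1, Cdh15, Pcdh10 and Pcdh19.

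Of 26 partners of cadherins, namely catenins, junction proteins, WAVE complex subunits and cleaving proteases, 1 was called in tumors against P7 cerebella and 2 against SHH MB, with median log2 fold changes of 0.30 and -0.08. Over all genes, 3.99% were called higher and 2.27% lower in the first and 2.43% and 2.26% in the second comparison, and nothing is read from these few calls. Lower in both was Nectin3, an adhesion protein that links to actin beside cadherins, by -2.20 ± 0.33 against P7 cerebella (adjusted p = 0.00453) and -1.36 ± 0.33 against SHH MB (adjusted p = 0.0339). Cyfip2, a neuronal subunit of the WAVE complex, was higher than in SHH MB by 2.04 ± 0.49 (adjusted p = 0.0330). β-catenin (Ctnnb1) did not pass the test in any comparison, with means of 425 CPM in tumors, 300.2 CPM in P7 cerebella and 455 CPM in SHH MB. Among 12 large relatives of the cadherin superfamily, the protocadherin Dchs1 was lower in tumors against P7 cerebella (-1.47 ± 0.38, adjusted p = 0.0402) and SHH MB (-1.69 ± 0.38, adjusted p = 0.0250). Dchs2 was lower against P7 cerebella (-1.74 ± 0.45, adjusted p = 0.0408), and Celsr2, which acts in planar cell polarity, against SHH MB (-1.34 ± 0.30, adjusted p = 0.0264). Dchs1 and its relatives bind Fat cadherins, of which Fat4 did not pass the test. Of 58 clustered protocadherins, whose isoforms share exons so that single genes are uncertain, 55 were tested, 1 was called (Pcdha9, lower against P7 cerebella), and the median log2 fold changes of tumors were -0.37 against P7 cerebella and -0.10 against SHH MB.

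Several called members have exons that overlap the span of another annotated gene, introns of that gene included. This holds for Cdh3, Cdh6, Cdh10, Cdh13, Pcdh8 and Pcdh20, but not for Cdh11, Cdh20 and Pcdh11x. The exons of the other genes were not compared, so that shared exonic bases were not established. The sources used here do not state whether the reads were counted by strand, so that any reads in shared bases cannot be assigned.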

How the data were processed

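RNA was extracted from FFPE tissue in all groups, as punches in the case of the tumors, depleted of ribosomal RNA and sequenced as CORALL libraries on a NextSeq500. The authors trimmed the reads with Trimmomatic 0.38.1, aligned them with STAR 2.7.8a to GRCm39 and counted them per gene with featureCounts 2.0.1. The annotation and strand setting of the counting are not given in the sources used here. The deposited counts are raw. The authors also deposited values after the variance stabilizing transformation of DESeq2, which are on a log2-like scale and served in 1 alternative.

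Raw counts of all 10 libraries were fitted with the quasi-likelihood test of edgeR 4.0.16 in R 4.3.3, with 1 mean per group, TMM factors and genes kept by filterByExpr. P-values of 29952 genes were adjusted by the Benjamini-Hochberg method, and a member was called at an adjusted p of at most 0.05. CPM use TMM-scaled library sizes, and CPM per kb the union of exons in GENCODE vM39. The TMM factors were 0.62, 0.80, 1.28 and 0.88 in tumors 1 to 4 and 1.01 to 1.20 in the controls. Intervals have a confidence of 95%. The floor was 3 counts and covers counting error only. Library totals ranged from 5663491 to 9352109, so that levels of a few CPM rest on few reads. Nothing in the labels says that same-numbered libraries belong together, and p-values measure the spread between these samples.

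Values in every library are given for called members, type I cadherins and the most abundant member per class. Cdh7, Cdh18, Pcdh10 and Pcdh19 were chosen for description once their values had been seen. The members and lists were chosen with earlier results of these data known. The alternatives were DESeq2 1.42.0, limma 3.58.1 on the VST values, RLE factors, no filter, at least 10 counts in every library, fits of 2 groups, a block for the replicate number, robust dispersions, exclusion of mitochondrial and rRNA-like genes from library sizes, log2 CPM with a prior count of 0.5 instead of 2, a stricter threshold and each library left out in turn. The edgeR, DESeq2 and limma steps were tested on simulated data with known changes.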

Additional observations from a re-analysis of the deposited data

Results flagged for a closer look

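Of the 34 members, 1 had a tumor library that stood apart from the other 3 tumors by Dixon's criterion for groups of 4. Pcdh18 reached 5.43 CPM in tumor 1 and 47.6 to 64.4 CPM in the other tumors, so that the gap to the nearest tumor made up 0.876 of the range on the log2 scale. Chance flags about 1 in 20 groups, and 34 members were examined. Groups of 3 libraries were not examined.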

How the results depend on the processing

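The number of members called against P7 cerebella was 9 and became 5 with no filter on low counts, 4 in a fit of these 2 groups and 0 under the stricter threshold. It ranged from 2 to 19 with each library left out in turn, in fits that called 150 and 9932 genes in all. Against SHH MB it was 4 and became 8 with DESeq2, 7 with at least 10 counts in every library and 1 under the stricter threshold. It ranged from 2 to 13 with libraries left out, in fits that called 311 or 353 and 6729 genes in all. For SHH MB against P7 cerebella it was 1 and became 4 with DESeq2 and 18 in a fit of these 2 groups. It ranged from 0 to 5 with libraries left out, in fits that called 0 and 946 genes in all. The count of 18 follows from leaving out the tumors. The causes of the other changes were not tested. Replicate numbers did not pair the libraries (correlations of deviations from -0.274 to 0.162). With the replicate block, 3 members were called against P7 cerebella, 3 against SHH MB and 1 between the controls.

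Among the fold changes of single members, 800 results under alternatives kept direction and side of the threshold, 71 lost the call, 28 gained it and 10 changed sign, all of them uncalled in both fits. Against P7 cerebella, Cdh2 became 0.0182 with the replicate block, and Pcdh9 became -0.0300 with limma on VST values, -0.243 with at least 10 counts and -0.0743 in the fit of 2 groups. With libraries left out, Pcdh9 ranged from -0.318 (without tumor 1) to 0.165, with -0.143 without P7 cerebellum 3, and Pcdh15 from -0.0496 (without tumor 2) to 0.755. Against SHH MB, Pcdh8 ranged from -0.121 (without tumor 2) to 0.352, with -0.0403 without tumor 3. Between the controls, Pcdh15 ranged from -0.145 to 0.00861 (without SHH MB 1). A prior count of 0.5 left the permutation tests of Cdh13, Cdh20 and Pcdh11x on the same side of 0.05. Against P7 cerebella, the median log2 fold change over all genes was -0.05 and became -0.23 with limma on VST values and -0.25 with no filter, so that changes there are relative to it. The 4 tumors and 3 libraries per control group limit what can be called, and members with few reads, such as Cdh16, Cdh17 and Cdh26, are imprecise.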
